A study of Mus with 6 samples.

Results

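The vascular endothelial growth factor (VEGF) system was followed through 9 genes of the deposited expression table, chosen by symbol: the receptor tyrosine kinase genes Kdr, Flt1 and Flt4, the neuropilin co-receptor genes Nrp1 and Nrp2, and the ligand genes Vegfa, Vegfb, Vegfc and Pgf. All 9 were found among the 20893 genes listed, and all 9 passed the filter on low values that left 10806 genes for testing. The study sequenced RNA of mouse cardiac microvascular endothelial cells, kept on magnetic beads as CD31-positive cells without CD45, with wild-type (WT) animals compared with Ccl28 knockouts (KO). Both groups had their left coronary artery ligated, an operation that causes myocardial infarction, so no group without surgery is compared here. Each genotype has 3 libraries, with the replicate numbers 2, 3 and 4. The genotype field reads Ccl29-KO for KO replicate 3 and Ccl30-KO for KO replicate 4, whereas both titles read Ccl28-KO, which is how they were grouped. The sources used here name no strain, sex, age or time after ligation. They do not say whether libraries came from separate animals or pools, so a p-value covers the spread of these libraries, biological or technical.

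VEGF ligands are secreted proteins that act on endothelial cells through receptor tyrosine kinases. VEGF-A binds KDR, the main signalling receptor of blood vessel endothelium, and binds FLT1 more tightly, which largely acts as a trap and also exists as a soluble splice form. VEGF-B and placental growth factor, the product of Pgf, bind FLT1, while VEGF-C binds FLT4, the receptor best known from lymphatic vessels, and in its processed form KDR as well. Neuropilins lack a kinase and hold ligand and receptor together, and they also serve semaphorins. In the heart much VEGF-A is made by cardiomyocytes and other cells around the vessels, so the ligand transcripts of sorted cells are only one source of ligand. Gene-level values do not separate the soluble from the membrane form of Flt1.

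Values are FPKM, fragment counts divided by the length of the gene and the depth of the library, and so are levels per length. Comparisons between genes of unlike length are limited by the slope on length given below. Whole reads recovered from them gave library totals of 39104282 to 40500067 in WT and 36004457 to 37780513 in KO. Ccl28 itself had 16, 11 and 24 reads in WT replicates 2, 3 and 4 and 0 in each KO library. The endothelial identity of the cells was evident in both genotypes: the summed FPKM of 8 endothelial markers (Pecam1, Cdh5, Tek, Tie1, Emcn, Egfl7, Erg and Cldn5) was 3378 to 3466 in WT and 3230 to 3461 in KO. One feature of the libraries touches every result below. The slope of a library's log2 values on log2 exonic length was 0.10 to 0.13 in WT and -0.15 to -0.09 in KO, so that long genes were lower and short genes higher in KO, and genotype and this slope cannot be told apart.

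The 5 receptor and neuropilin genes were all lower in KO, by 1.51-fold for Flt4 to 2.04-fold for Nrp2, and each passed the test. None of the 4 ligand genes passed it, although Vegfa and Vegfb lay close to the threshold, in opposite directions. The test was limma on log2(FPKM + 1) over all 10806 genes, with an adjusted p under 0.05 as the call. By this rule 44.2% of all tested genes were called, 25.8% as lower in KO and 18.3% as higher, so calls were common in these data. In bulk libraries, fewer cells of a type and less RNA per cell cannot be told apart. The median log2 fold change of KO over WT was -0.81 over the 5 receptor and neuropilin genes, -0.17 over the 4 ligands and -0.03 over all tested genes.

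Kdr (gene ID 16542, chromosome 5 from 75932827 to 75979072 in GRCm38) was the most abundant of the 9 transcripts. Its FPKM was 250.1, 245 and 286 in WT replicates 2, 3 and 4, and 172, 154 and 122 in KO replicates 2, 3 and 4. Every KO library lay below every WT library, as for 31.9% of all tested genes, and the lowest value was that of KO replicate 4. The group means were 260.5 ± 22.1 and 149 ± 25.3 (SD, n = 3), a 1.75-fold difference, with a log2 fold change of -0.81 (SE 0.12, adjusted p = 0.000898).

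Flt1 (gene ID 14254, chromosome 5 from 147561604 to 147726438), the decoy receptor gene, had an FPKM of 106, 104 and 118 in the WT libraries in the same order. In the KO libraries it had 75.03, 71.6 and 58.7. The groups did not overlap, as for 31.9% of all tested genes with KO lower. Again WT replicate 4 was the highest and KO replicate 4 the lowest library. The log2 fold change was -0.67 (SE 0.10, adjusted p = 0.000872), a fall of 1.597-fold.

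Flt4 (gene ID 14257, chromosome 11 from 49609679 to 49652739), the receptor gene for VEGF-C, had an FPKM of 47.2, 44.0 and 49.8 in WT and of 30.7, 34.6 and 28.2 in KO. These groups were also apart, as for 31.9% of all tested genes with KO lower, with the smallest difference of the 3 kinase genes. It fell 1.51-fold, with a log2 fold change of -0.58 (SE 0.09, adjusted p = 0.001).

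Nrp1 (gene ID 18186, chromosome 8 from 128358591 to 128505476), the co-receptor gene for VEGF-A signalling through KDR, had an FPKM of 111, 105 and 127 in WT and of 63.3, 61.1 and 49.1 in KO. No KO library reached the WT range, as for 31.9% of all tested genes. The mean fell 1.97-fold from 114 ± 11.7 to 57.8 ± 7.63 (SD, n = 3), with a log2 fold change of -0.97 (SE 0.11, adjusted p = 0.000456).

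Nrp2 (gene ID 18187, chromosome 1 from 62703317 to 62818692), which assists FLT4 and is typical of veins and lymphatics, had an FPKM of 58.4, 50.8 and 57.0 in WT and of 29.0, 30.2 and 22.4 in KO. The highest KO library was far below the lowest WT library. Of all tested genes 31.9% had every KO library below every WT library. Its log2 fold change of -1.01 (SE 0.11, adjusted p = 0.000456) was the largest of the 9 genes, a fall of 2.04-fold.

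**Figure D1:**
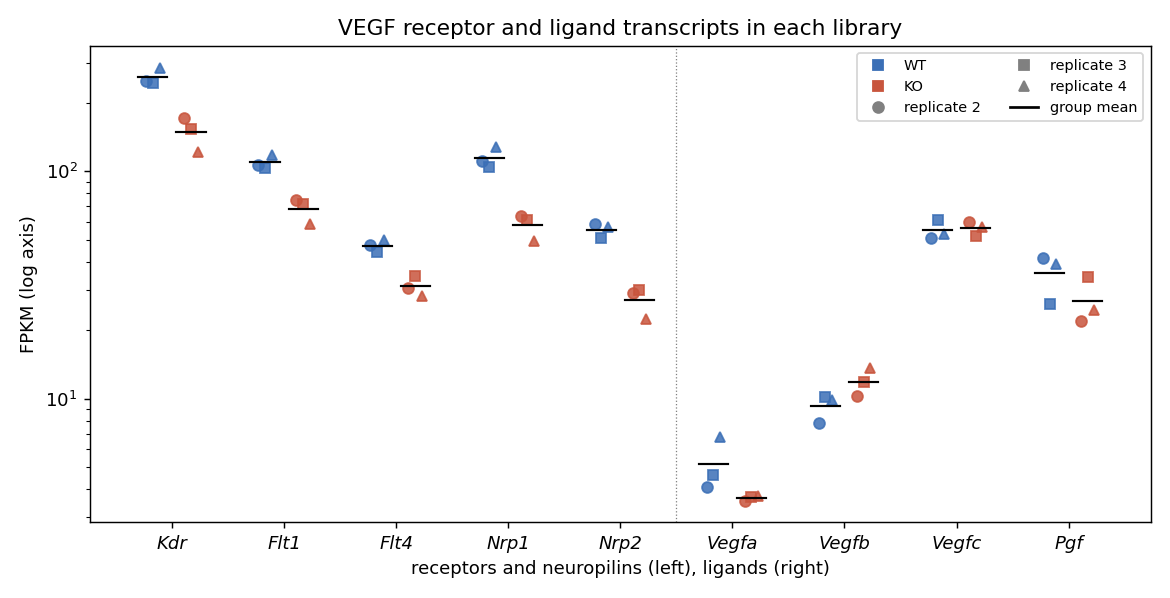
FPKM of the 9 genes in each library on a log axis, with WT in blue and KO in red, marker shapes for replicate numbers and black bars for the means of 3 libraries. The groups are apart for the 5 receptor and neuropilin genes on the left and for Vegfa and Vegfb on the right. For Vegfc and Pgf they overlap. Of all tested genes 31.9% were apart with KO lower and 22.8% with KO higher.

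Vegfa (gene ID 22339, chromosome 17 from 46016993 to 46032377) was the least abundant of the 9 transcripts in these cells. Its FPKM was 4.08, 4.63 and 6.77 in WT and 3.56, 3.67 and 3.71 in KO, from 558 to 1115 reads per library. The ranges did not overlap, an order with KO lower that 31.9% of all tested genes had. WT replicate 4 stood above the other WT libraries, and the KO libraries were close together. The log2 fold change was -0.38 (95% interval -0.71 to -0.06, adjusted p = 0.0547), and the gene was not called. Without WT replicate 2 it would have been called as lower (log2 fold change -0.51, adjusted p = 0.0203), and without WT replicate 4, the high library, the log2 fold change was -0.20 (adjusted p = 0.19).

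Vegfb (gene ID 22340, chromosome 19 from 6982472 to 6987651), a ligand gene linked to fatty acid handling and highly expressed in heart muscle, had an FPKM of 7.80, 10.1 and 9.89 in WT and of 10.2, 11.8 and 13.6 in KO. The lowest KO library lay just above the highest WT library, an order seen for 22.8% of tested genes. The log2 fold change was 0.33 (95% interval 0.05 to 0.60, adjusted p = 0.0522), short of the threshold. With the threshold this near, Vegfb was called as higher under several other settings, for example with median-ratio scaling (adjusted p = 0.0423), where 23.2% of genes were called as higher, and with limma-voom on the recovered reads (adjusted p = 0.0478), where 22.7% were.

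Vegfc (gene ID 22341, chromosome 8 from 54077532 to 54186454) was the most abundant ligand transcript. Its FPKM was 51.0, 61.1 and 52.7 in WT and 59.6, 52.0 and 56.9 in KO, and the groups overlapped fully. The log2 fold change was 0.03 (95% interval -0.16 to 0.23, adjusted p = 0.781). That interval ends short of the changes measured for the 5 receptor and neuropilin genes, all of them longer genes. With the trend on length removed, the Vegfc interval was -0.36 to 0.06, which holds the values of Flt1 (-0.22) and Flt4 (-0.32) after that removal.

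Pgf (gene ID 18654, chromosome 12 from 85166637 to 85177785) was spread widely within both genotypes. Its FPKM was 41.6, 26.1 and 38.9 in WT and 21.9, 34.2 and 24.6 in KO. WT replicate 3 fell inside the KO range and KO replicate 3 inside the WT range. The log2 fold change was -0.39 (95% interval -0.81 to 0.03, adjusted p = 0.119). Without WT replicate 3 it was -0.59 (adjusted p = 0.0197) and without KO replicate 3 it was -0.57 (adjusted p = 0.024), so these libraries decide the call. Counting error was smaller than this spread: with at least 1804 reads per library the counting error of Pgf was at most 2.35%, against a coefficient of variation of 23.2% in WT and 24.1% in KO.

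The order of levels also differed, on values from which the slope on length was not removed. In WT Kdr came first, followed by Nrp1 and Flt1, whose library ranges overlapped, then Nrp2 and Vegfc, also overlapping, then Flt4, Pgf, Vegfb and Vegfa, each apart from the next. In KO Kdr again came first, and Flt1, Nrp1 and Vegfc followed with overlap between neighbours. Flt4, Nrp2 and Pgf then formed a run of overlapping levels, above Vegfb and Vegfa. Nrp2 thus stood level with Vegfc in WT and below it in KO, with 27.2 ± 4.18 against 56.2 ± 3.85 FPKM (SD, n = 3).

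Summed over the family, the 3 kinase genes reached 393 to 454 FPKM in WT and 209 to 278 in KO, and the neuropilins 155 to 184 and 71.5 to 92.3. The 4 ligand genes together reached 102 to 108 FPKM in WT and 95.3 to 102 in KO. The receptor sum was therefore 3.86 to 4.19 times the ligand sum in WT libraries and 2.11 to 2.91 times in KO libraries. The slope on length was not removed from these sums. Within the sums, Kdr gave 62.0% to 63.0% of the kinase receptor sum in WT and 58.4% to 61.9% in KO, and Vegfc gave 48.7% to 59.9% of the ligand sum in WT and 51.1% to 62.5% in KO. Vegfa made up 3.91% to 6.25% of the ligand sum in WT and 3.61% to 3.76% in KO, and Vegfb 7.46% to 9.93% and 10.7% to 13.8%. The Vegfb share was thus higher in every KO library and the Vegfa share lower, while those of Vegfc and Pgf overlapped.

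Receptor and ligand genes also differ in length, which matters because of the slope described above. The exonic length implied by the deposited values was 5839 nt for Flt4, 7843 nt for Kdr, 8122 nt for Nrp2, 9735 nt for Nrp1 and 13930 nt for Flt1. The ligand genes were shorter, at 1282 nt for Vegfb, 1881 nt for Vegfc, 2179 nt for Pgf and 4174 nt for Vegfa. Every receptor gene was thus longer than every ligand gene. Of the 2161 tested genes with the longest exonic sequence (6233 nt and more), which include Kdr, Flt1, Nrp1 and Nrp2, 1431 were called as lower and 25 as higher. Of the 2162 shortest (up to 1791 nt), which include Vegfb, 34 were called as lower and 1292 as higher.

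**Figure D2:**
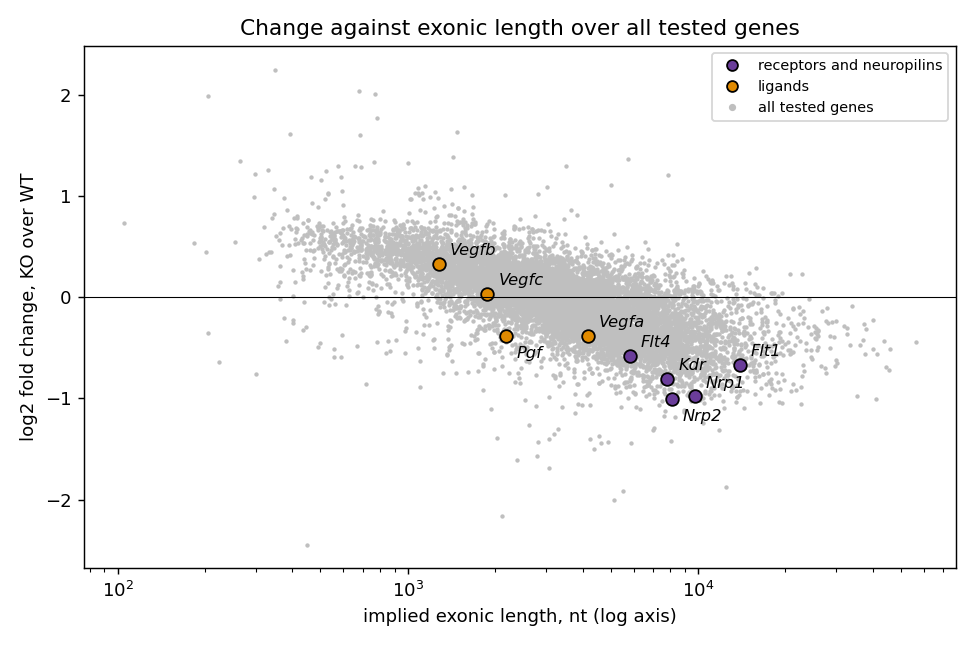
Log2 fold change of KO over WT against implied exonic length on a log axis, with 1 grey point for each of the 10806 tested genes, receptors and neuropilins in purple and ligands in orange. The cloud falls from left to right. Vegfb and Vegfc lie inside it, and Kdr, Nrp1, Nrp2 and Pgf lie along its lower edge.

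Each gene was therefore set beside the 200 tested genes nearest to it in length. For Kdr these neighbours had a median log2 fold change of -0.33, with a 10th to 90th percentile range of -0.70 to 0.01, and 8 of the 200 lay below Kdr. For Nrp1 the median was -0.41 and 3 of the 200 lay lower, and for Nrp2 it was -0.38 with 3 lower. These 3 receptor genes were thus below the bulk of genes of their length. The neighbours were matched on length and not on level, and log2(FPKM + 1) understates the changes of low genes among them. Flt4 was just inside the range of its neighbours, at -0.58 against a median of -0.30 and a 10th percentile of -0.59, with 21 of 200 lower. Flt1 lay well inside, at -0.67 against a median of -0.47, with 48 of 200 lower.

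The ligands sat differently against their own neighbours. Vegfb, at 0.33, was close to the median of 0.31 for genes of its length, with 110 of 200 below it. Vegfc was 0.14 below its neighbours' median of 0.17, with 44 of 200 lower, and Vegfa was 0.24 below its neighbours' median of -0.14, with 25 lower. Pgf lay lower against its neighbours, which had a median of 0.15, and 2 of the 200 were below its value of -0.39. These positions are descriptions of where a gene lies among others and carry no p-value.

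When a trend on length was removed from each library before the test, 18.7% of genes were called, 9.42% as lower and 9.26% as higher. The log2 fold change of Nrp2 was then -0.64 (adjusted p = 0.0043), that of Nrp1 -0.57 (adjusted p = 0.00488), that of Kdr -0.45 (adjusted p = 0.0173) and that of Flt4 -0.32 (adjusted p = 0.019). These 4 remained called as lower, at between 0.551 and 0.635 of their former size on the log2 scale. Flt1 was no longer called, at -0.22 (95% interval -0.39 to -0.05, adjusted p = 0.0695). No ligand was called: Vegfb went to 0.00 (95% interval -0.28 to 0.29, adjusted p = 0.989), Vegfc to -0.15 (adjusted p = 0.279), Vegfa to -0.25 (adjusted p = 0.253) and Pgf to -0.52 (adjusted p = 0.0866). The value of Pgf was then between those of Kdr and Nrp1, with a wider interval of -0.94 to -0.09.

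**Figure D3:**
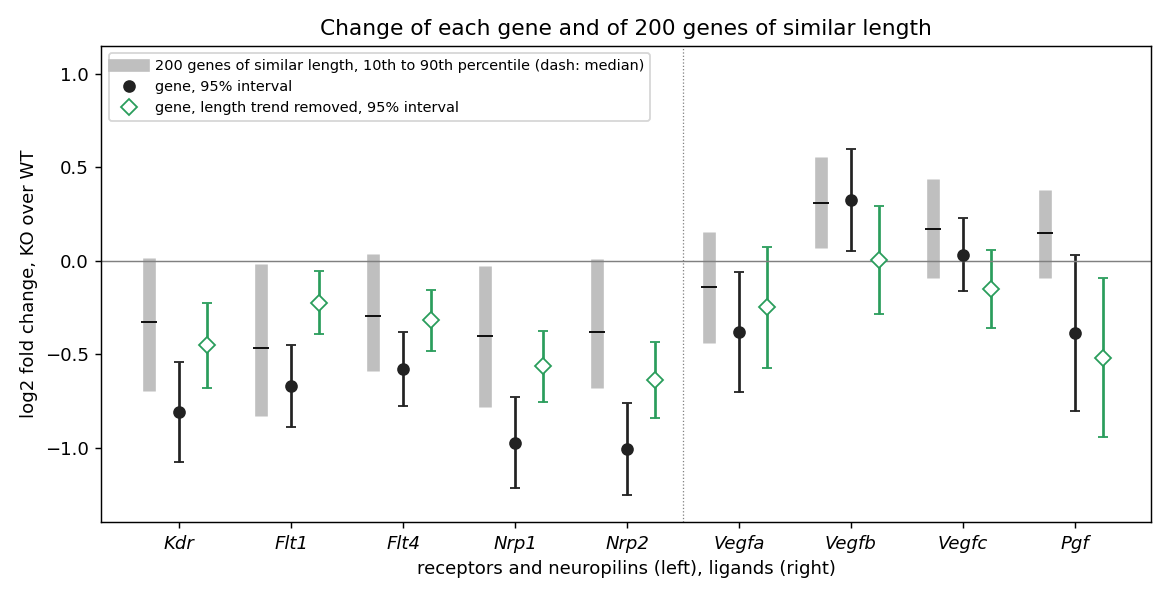
Log2 fold change of KO over WT for the 9 genes, with 95% intervals, as tested (black circles) and after removal of the length trend (green diamonds), beside the 10th to 90th percentile range of 200 genes of similar length (grey bars, dash at the median). Kdr, Nrp1, Nrp2 and Pgf lie below the grey bars, and Vegfb lies on the median of its bar.

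Ratios inside each library compare one gene with another directly. In 7 ratios the exact two-sided permutation test was run, and with 3 against 3 libraries it cannot give a p below 0.1, so none can pass 0.05. The ratio of Flt1 to Kdr was 0.424, 0.423 and 0.413 in WT and 0.437, 0.466 and 0.482 in KO. It was higher in every KO library (exact permutation p = 0.1, adjusted p = 0.14), with both genes lower in KO. These gene-level values do not separate the soluble and membrane forms of Flt1. The ratio of Nrp1 to Kdr was 0.443, 0.426 and 0.445 in WT and 0.368, 0.398 and 0.403 in KO, lower in every KO library (exact permutation p = 0.1, adjusted p = 0.14). Among ratios without a test, Nrp2 to Flt4 went from 1.14 to 1.24 in the WT libraries to 0.794 to 0.944 in the KO libraries, and Nrp2 to Nrp1 overlapped, with a mean of 0.487 in WT and 0.469 in KO.

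Ligand to receptor ratios separated the ligands. Vegfb relative to Kdr was higher in every KO library, with a log2 difference of 1.17 (exact permutation p = 0.1, adjusted p = 0.14), and so was Vegfc relative to Kdr, with a log2 difference of 0.85 (exact permutation p = 0.1, adjusted p = 0.14). Vegfa relative to Kdr overlapped between genotypes, at a mean ratio of 0.0196 in WT and 0.0250 in KO by exact permutation (p = 0.2), as did Pgf relative to Kdr (exact permutation p = 0.3). Vegfb relative to Vegfa went from 1.91, 2.19 and 1.46 in WT to 2.88, 3.22 and 3.66 in KO, with no overlap (exact permutation p = 0.1). With the length trend removed, the log2 difference fell to 0.46 for Vegfb to Kdr (exact permutation p = 0.2), 0.30 for Vegfc to Kdr (exact permutation p = 0.3) and 0.25 for Vegfb to Vegfa (exact permutation p = 0.2). The differences for Flt1 to Kdr (0.23) and Nrp1 to Kdr (-0.11) still had no overlap after that removal (exact permutation p = 0.1, adjusted p = 0.35 for each).

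**Figure D4:**
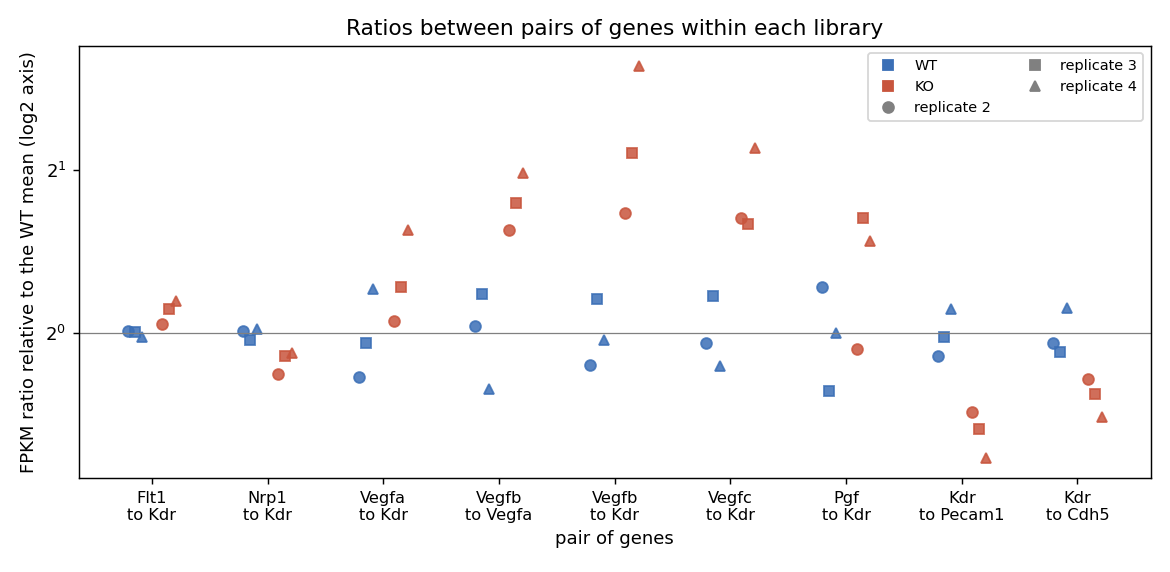
Ratio of the FPKM of pairs of genes in each library, divided by the WT mean of that ratio, on a log2 axis, with WT in blue, KO in red and marker shapes for replicate numbers. The KO libraries lie above the WT libraries for Flt1, Vegfb and Vegfc relative to Kdr and below them for Nrp1 relative to Kdr and for Kdr relative to Pecam1 and Cdh5.

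The receptor genes were also set beside other endothelial transcripts. Of the 8 endothelial markers, 3 were called as lower in KO (Cdh5, Tek and Erg), 2 as higher (Emcn and Egfl7), against 25.8% and 18.3% of all tested genes, and the median log2 fold change was -0.21. With the length trend removed Cdh5 and Tek were still called, and Erg, Emcn and Egfl7 were not. In that fit 9.42% of all tested genes were called as lower and 9.26% as higher. Pecam1, which encodes CD31, had 705 ± 35.9 FPKM in WT and 611 ± 45.1 in KO (SD, n = 3, adjusted p = 0.0709). Cdh5, the adherens junction gene for VE-cadherin, fell from 766 ± 14.1 to 569 ± 52.4 (adjusted p = 0.00354). Kdr relative to Pecam1 was 0.336, 0.365 and 0.410 in WT and 0.265, 0.246 and 0.217 in KO, and relative to Cdh5 it was 0.314 to 0.38 in WT and 0.238 to 0.280 in KO. Kdr was thus lower in KO also per unit of these endothelial transcripts. With the length trend removed the log2 differences were -0.28 relative to Pecam1 and -0.14 relative to Cdh5. Pecam1 and Cdh5 have shorter exonic lengths than Kdr, 3333 and 4038 nt.

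Other cell types express parts of this family, and some of their markers moved in the same direction. Over all tested genes 25.8% were called as lower and 18.3% as higher, or 9.42% and 9.26% with the length trend removed. The median exonic length was 5328 nt for the tested mural markers and 5564 nt for the fibroblast markers, against 3429 nt over all tested genes. Lymphatic endothelium carries Flt4 and Nrp2, and the summed FPKM of 4 lymphatic markers was 19.8 to 28.1 in WT and 7.08 to 16.2 in KO. Of the 3 tested, Lyve1 and Mmrn1 were called as lower, Pdpn was not, and the defining factor gene Prox1 was under the filter at 0.641 ± 0.0478 FPKM in WT and 0.207 ± 0.0712 in KO (SD, n = 3). Mural cells, which carry Nrp1, had 5 of 6 tested markers lower and none higher by limma, with Acta2 at 145 FPKM in both genotypes and a summed FPKM of 311 to 410 in WT and 219 to 338 in KO. Fibroblast markers were low, at a sum of 14.3 to 15.6 FPKM in WT and 7.47 to 8.33 in KO, with all 3 tested members lower, or 2 with the length trend removed. Cardiomyocyte markers, of interest for Vegfa and Vegfb, summed to 69.8 to 101 FPKM in WT and 85.4 to 98.8 in KO, with 1 of 4 tested lower (Myh6) and 1 higher (Nppa), neither of them called with the length trend removed (adjusted p = 0.554 and 0.438). Leukocyte markers summed to 69.7 to 178 FPKM in WT and 163 to 264 in KO, with Cd68 and Lyz2 higher and 4 of 6 not called, among them Ptprc, the gene for CD45, at 1.225 ± 0.438 FPKM for WT and 1.16 ± 0.213 for KO (SD, n = 3). With the length trend removed Cd68 (adjusted p = 0.284) and Lyz2 (adjusted p = 0.182) were no longer called, while 2 lymphatic and 5 mural markers were called as lower. None of these markers was at 0 in a library. Their part in the changes of the VEGF genes was not tested.

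Of 56 other genes of the VEGF pathway, 48 were tested, of which 26 were called as lower in KO and 4 as higher, with a median log2 fold change of -0.26. Egr3 and Nr4a2 passed the filter on low values only through the WT libraries. Among the other 46 genes 24 were lower and 4 higher, where 25.8% and 18.3% of all tested genes were. Vegfd, the remaining ligand gene of the family, was barely present, at 0.0556 to 0.179 FPKM in the WT libraries and 0.058 to 0.0825 in the KO libraries. With the length trend removed 13 of the 46 were lower and 4 higher, against 9.42% and 9.26% of all tested genes. Without replicate 4 of both genotypes 13 of the pathway genes were lower, where 10.6% of all tested genes were, and none higher by limma.

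Among 10 tested genes for partners of the receptors and their traffic, 7 were called as lower and 1 as higher. Over all tested genes 25.8% and 18.3% were. The median exonic length of the 10 was 6607 nt, and of the 2161 longest tested genes (6233 nt and more) 1431 were called as lower. Ptprb, the phosphatase that acts on KDR and VE-cadherin at junctions, fell 1.86-fold from 104 ± 7.66 to 55.9 ± 6.34 FPKM (SD, n = 3, adjusted p = 0.000456). Cbl, a ubiquitin ligase for activated receptors, fell 2.44-fold from 4.48 ± 0.295 to 1.84 ± 0.583 FPKM (adjusted p = 0.000898). Myo6, a motor that moves endocytic vesicles, fell 1.72-fold (adjusted p = 0.000456). Gipc1, the adaptor that links neuropilin and Myo6, was the gene that rose, from 22.6 ± 1.28 to 28.8 ± 1.27 FPKM (adjusted p = 0.00544), and it was named after its values were seen. With the length trend removed 4 were lower (Ptprb, Cbl, Myo6 and Cdh5) and 1 was higher, against 9.42% and 9.26% of all tested genes.

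Among 26 tested signal transduction genes, 10 were called as lower, 3 as higher and 13 in neither direction, with a median log2 fold change of -0.09. With 13 of 26 called, the share was near the 44.2% of all tested genes. The genes for subunits of phosphoinositide 3-kinase were lower: Pik3r1 fell 1.90-fold (adjusted p = 0.000807), Pik3cb 1.54-fold (adjusted p = 0.00158) and Pik3ca 1.43-fold (adjusted p = 0.00184). Mapk3 and Map2k2, kinase genes of the ERK branch, and Hspb1 were the 3 that rose, and these were named after their values were seen. Hspb1 had a log2 fold change of 0.24 that turned to -0.19 with the length trend removed, and it was not called without KO replicate 2 (adjusted p = 0.0643) or without KO replicate 4 (adjusted p = 0.0637). After removal of the trend on length 2 of the 26 were lower (Pik3cb and Mapk14) and 3 higher (Mapk3, Map2k2 and Cdc42). Those counts were near the shares over all tested genes in that fit, 9.42% lower and 9.26% higher. Pik3r1 and Pik3ca were among those no longer called.

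Genes known to be induced by VEGF-A in endothelium had the lowest median of the 3 groups. Of the 10 that reached an FPKM of 1 in both genotypes, 7 were called as lower and none as higher by limma, with a median log2 fold change of -0.55. Over all tested genes 25.8% were called as lower and 18.3% as higher. Nr4a1, an early nuclear receptor gene, went from 17.5 ± 2.27 to 3.59 ± 0.633 FPKM (SD, n = 3, adjusted p = 3.72e-05). Adamts1, a secreted protease gene, fell 2.72-fold from 92.1 ± 15.2 to 33.9 ± 9.08 (adjusted p = 0.000522). Egr3, an early transcription factor gene, had 1.81 ± 0.412 in WT and 0.431 ± 0.0917 in KO. It passed the filter through its WT libraries alone, as did Nr4a2, so their calls are not counted here, and without any 1 WT library Egr3 was not tested. Dll4, the Notch ligand gene of sprouting tips, fell 1.54-fold from 147 ± 9.55 to 95.8 ± 4.82 (adjusted p = 0.000523). After removal of the length trend 7 of the 10 were called as lower, against 9.42% of all tested genes, and the median was -0.52. These genes respond to other stimuli as well.

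**Figure D5:**
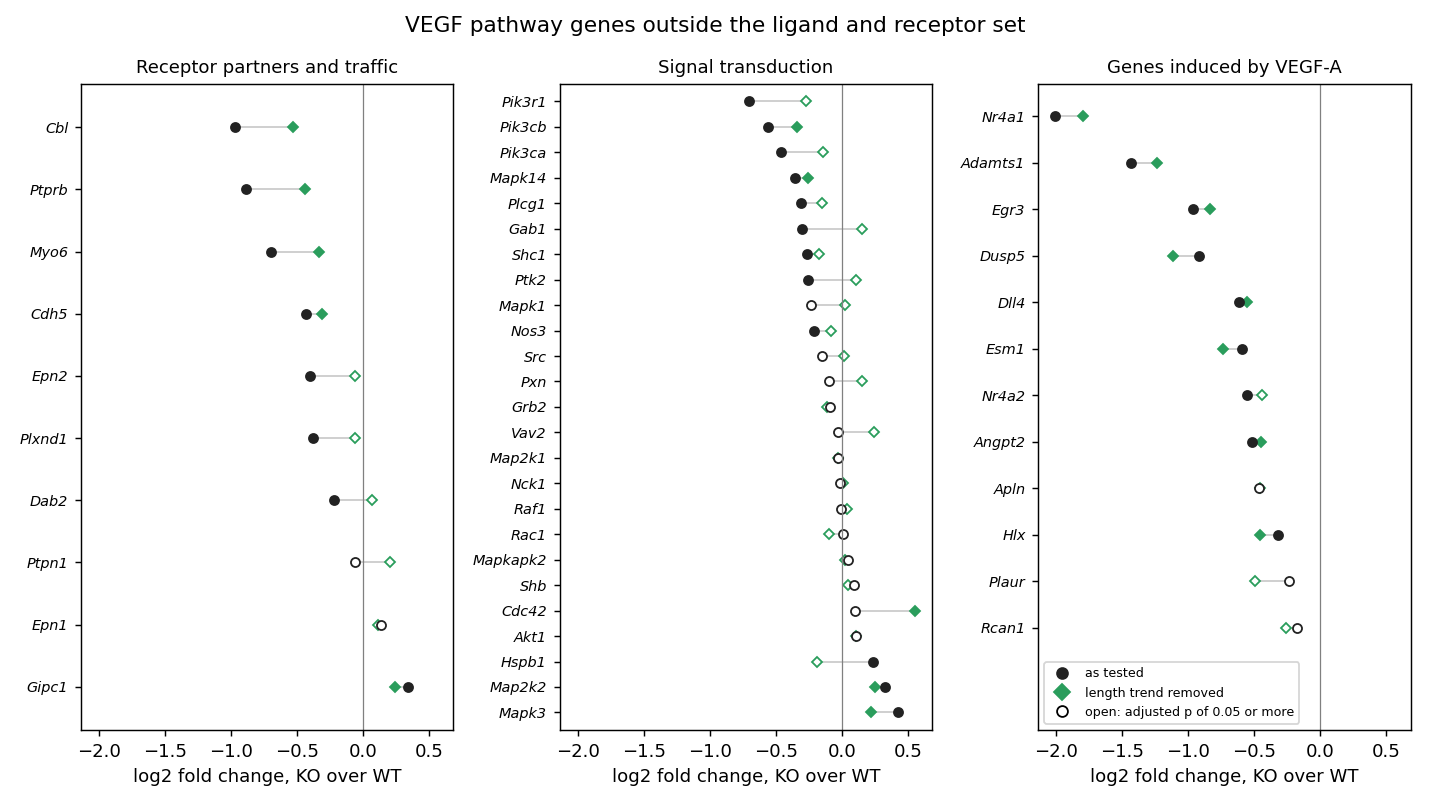
Log2 fold change of KO over WT for 47 of the 48 tested VEGF pathway genes in 3 groups, as tested (black circles) and after removal of the length trend (green diamonds), with open markers for genes that were not called. Of the genes induced by VEGF-A that reached an FPKM of 1 in both genotypes, 7 of 10 have filled circles below 0, and 13 signal transduction genes have open circles.

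The tested genes with profiles most like each receptor were found by the root mean square distance between log2(FPKM + 1) profiles over the 6 libraries, each centred on its own mean. Kdr was nearest to Btbd7 (distance 0.04), Atp2a2 and Fyco1, and Flt1 to Fbxw7 (0.03), Rmnd5a and Xpr1. Flt4 was nearest to Hcfc1 (0.01), Elf4 and Pcgf3, Nrp1 to Kat6a (0.03), Etnk1 and Nfat5, and Nrp2 to Pank3 (0.04), Nin and Cpd. These 15 neighbours had exonic lengths from 5294 nt for Atp2a2 to 20918 nt for Nfat5. For the ligands the nearest genes were Pde1b for Vegfa (0.08), Arrdc1 for Vegfb (0.07), Abcb1b for Vegfc (0.03) and Plau, which encodes urokinase, for Pgf (0.04). None of the nearest genes was another of the 9.

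In the authors' deposited table the 5 receptor and neuropilin genes were also lower, with log2 fold changes from -0.53 for Flt4 (q = 1.21e-07) to -0.96 for Nrp2 (q = 4.92e-18), where 29.3% of genes had a q under 0.05 and 15.7% were lower. Vegfa had a log2 fold change of -0.44 in the authors' deposited table with q = 0.0413, on the other side of the threshold from the limma test. Vegfb had a log2 fold change of 0.42 there (q = 0.0541), Vegfc of 0.09 (q = 0.582) and Pgf of -0.33 (q = 0.406) in the authors' deposited table.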

How the data were processed

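The authors deposited FPKM for 6 libraries, 3 per genotype, grouped here by title. Their comparison table, also deposited, gives group means of a normalized signal, a fold (ratio), its log2, a p-value and a q-value, made with DESeq2 per the file headers. Per the submitters' processing notes, the build was mm10, and the tools listed (with no role given) were GATK 4.0.11.0, DESeq2 1.22.1, StringTie 1.3.4d, HISAT2 2.1.0, fastp 0.19.3, featureCounts 1.6.2 and Cufflinks. Coordinates come from the RefSeq gene table of GRCm38.p6 by gene ID (20334 of 20893 matched).

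FPKM divided by the group means gave each library's factor, the whole reads (100.0% of values up to 1000 reads whole within 0.05) and each gene's exonic length, scaled so that library totals are the recovered reads. A further 3207 genes had no recovered reads. The test was limma 3.58.1 in R 4.3.3, with a mean-variance trend and genotype as the one term, on log2(FPKM + 1), which understates changes of low genes. It covered genes reaching an FPKM of 1 in 3 or more libraries, with Benjamini-Hochberg adjustment over all 10806. Folds are ratios of mean FPKM. A lowess trend (span 0.3) on log2 length was removed from each library as an alternative. Other steps used scipy 1.17.1, pandas 2.3.3, matplotlib 3.10.9 and numpy 2.4.6 on Python 3.11.15. The scripts were checked on simulated data. Members, lists and tests were chosen with earlier results of these data known. All 9 members, the 4 pathway genes per group with the smallest p, fixed cell type markers and the 3 nearest profiles were named by rule, except that 1 pathway gene, counted in the totals, is not reported here or drawn. Same-numbered libraries are not stated to be paired.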

Additional observations from a re-analysis of the deposited data

How the results depend on the processing

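The 5 receptor and neuropilin genes stayed lower in KO under every setting run, and under each planned setting all 5 were called, apart from Flt1 with the length trend removed (log2 fold change -0.22). Leaving out 1 library at a time gave -0.92 to -0.67 for Kdr, -0.74 to -0.57 for Flt1, -0.66 to -0.51 for Flt4, -1.04 to -0.86 for Nrp1 and -1.09 to -0.88 for Nrp2, with 5 called each time. Vegfb was called as higher with FPKM of at least 5 (0.33), quantile normalization (0.41), median-ratio scaling (0.37), limma-voom (0.42) and the replicate number as a block (0.33), which made 1 ligand called in each of these. Higher genes were 48.8%, 48.3%, 50.3%, 48.0% and 41.1% of all calls in these settings, in that order, against 41.5% in the main test. Of all tested genes 23.2% were called as higher with median-ratio scaling and 22.7% with limma-voom, against 18.3% in the main test. Without 1 library the ligand count was 0 to 2, with log2 fold changes of -0.51 to -0.20 for Vegfa, 0.22 to 0.42 for Vegfb, -0.017 to 0.11 for Vegfc and -0.59 to -0.26 for Pgf. With FPKM of at least 5 Vegfa was not tested. Vegfc turned to -0.075 under quantile scaling and to -0.15 once the length trend was out, and the log2 difference of Pgf to Kdr turned to -0.066 there, as did the log2 fold change of Hspb1 (-0.19).

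The number of genes called went from 4772 to 2019 with the length trend removed (1353 shared with the same direction) and stood at 3284 to 4346 without 1 library. Pathway genes called went from 30 to 18 with the trend removed and stood at 22 to 29 without 1 library. These totals include Egr3 and Nr4a2 where tested, which passed the filter only through the WT libraries. Without both, 24 were lower and 4 higher, or 13 and 4 with the trend removed. Over all tested genes 44.2% were called, or 18.7% with the trend removed. Chosen after seeing the data, leaving out replicate 4 of both genotypes gave 1849 genes and 13 pathway genes called, all 5 receptors still called, and Vegfc at -0.0044. The replicate block changed no call of a receptor. Same-numbered libraries deviated in opposite directions (correlations of -0.35 to -0.19 over genes). Deviations from the mean of so small a group are tied to each other, so these correlations cannot show whether the libraries were paired. The length trend removal with the replicate block, also chosen after seeing the data, left 716 genes, 8 pathway genes and 2 receptors (Nrp1 and Nrp2) called, with Kdr at -0.45, Flt1 at -0.22, Flt4 at -0.32 and Vegfc at -0.15. Vegfa and Vegfb rest on 405 to 1115 reads per library, where counting error alone is up to 4.97%.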
